A study of Mus musculus with 4 samples.

Results

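The 10 Polycomb complex subunits examined here are *Ezh1*, *Ezh2*, *Eed*, *Suz12*, *Jarid2* and *Mtf2* of Polycomb repressive complex 2 (PRC2) and *Rnf2*, *Ring1*, *Pcgf1* and *Kdm2b* of Polycomb repressive complex 1 (PRC1). They were selected by gene symbol, with earlier results of these data known, and are 10 of the 50559 genes listed in the count table. All 10 passed the filter on low counts and are among the 18144 genes tested. RNA-seq was compared between mouse E14 embryonic stem cells (ESCs) that received siRNA to *Cnot1* (siCnot1) and the same cells that received non-targeting siRNA (siNT). Both were transfected at 150 nM for 48 h, and each group had 2 libraries. The replicates of a group are described by the study as biologically independent. The cells of both groups carried a tdTomato transgene driven by the MERVL promoter, per the study, and were grown with LIF on gelatin-coated dishes. CNOT1 holds together the CCR4-NOT deadenylase complex, which shortens the poly(A) tails of mRNAs. The study lists more than one siRNA against *Cnot1* and does not say which was used for these libraries.

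PRC2 deposits H3K27me3, a histone mark of silent chromatin, and PRC1 deposits H2AK119ub, a ubiquitin mark on histone H2A. In ESCs both complexes sit at CpG islands of developmental genes and keep them silent while leaving them ready for later activation. The core of PRC2 consists of a methyltransferase (EZH2 or its paralog EZH1), EED, which binds H3K27me3 and stimulates the enzyme, and the scaffold SUZ12, whereas JARID2 and MTF2 are accessory subunits that help to bring PRC2 to its sites. In PRC1 the E3 ubiquitin ligase is RNF2 (RING1B) or its paralog RING1 (RING1A), and PCGF1 and KDM2B belong to a variant PRC1 in which KDM2B binds unmethylated CpG islands.

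Counts on genes totalled 32135824 to 32557440 per library, and 3 counts correspond to 0.0921 to 0.0934 CPM. CPM is a gene's count scaled to the library size, and levels below are CPM with edgeR's TMM factors applied unless another scale is named. Such levels are relative to the other genes of a library, so a lower level does not show fewer copies per cell. The targeted gene, *Cnot1*, had 912 and 985 CPM in siNT and 185 and 192 CPM in siCnot1, 19.8% of the control level (log2 fold change -2.33, SE 0.0587, adjusted p = 2.37e-18, quasi-likelihood test of edgeR). Replicates of a group differed by more than counting noise, with a chi-square per degree of freedom of 6.71 in siNT and 5.61 in siCnot1. The ESC markers were abundant in every library, with a summed level of 6262 to 6612 CPM in siNT and 5207 to 5439 CPM in siCnot1. Of these 7 markers 6 fell and 0 rose, the median log2 fold change being -0.22. Of the 8 2-cell-like markers 6 rose and 0 fell, and their summed level was 66.7 to 67.6 CPM in siNT against 174 to 180 CPM in siCnot1. Primitive endoderm markers summed to 12.6 to 14.8 CPM in siNT and 22.1 to 22.9 CPM in siCnot1, with 2 of 6 higher and 0 lower. Of the 5 trophectoderm markers 4 were tested and 1 was higher, at summed levels of 21.04 to 23.01 CPM in siNT and 21.8 to 24.5 CPM in siCnot1. Fibroblast markers stayed between 8.93 and 13.3 CPM in sum, with 1 of the 3 tested higher, and *Col3a1* was at 0 in all 4 libraries. In bulk libraries fewer cells of a type and less RNA per cell cannot be told apart, and the part of these markers in the results below was not tested.

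In normalised CPM, the mRNAs of the PRC2 core subunits *Ezh2*, *Eed* and *Suz12* and of the PRC1 ligase *Rnf2* fell in siCnot1 ESCs. They stood at 70.6% to 77.6% of the siNT level. The accessory PRC2 subunits *Jarid2* and *Mtf2*, the paralogs *Ezh1* and *Ring1*, and the variant PRC1 subunits *Pcgf1* and *Kdm2b* did not pass the test. With the call set at an edgeR adjusted p under 0.05, 4 of the 10 members were thus lower and 0 were higher, beside 14.7% lower and 15.0% higher among all genes tested. At an unadjusted p under 0.05 the same test gave 4 members lower and 1 higher, beside 3493 lower and 3634 higher of the 18144 genes tested, while limma-voom called 1 member higher and DESeq2 called 0 higher. The median log2 fold change was -0.085 over the members and 0.0084 over all genes tested. Among the 2443 tested genes with a mean of at least 100 CPM over the 4 libraries, a split chosen after the values were seen, 43.7% were lower and 12.2% higher, the median log2 fold change being -0.12. Of the members 7 lie in that range, including the 4 that fell. A stricter rule on fold size, taken from the published methods, asks for an unadjusted p of 0.05 or less and a log2 fold change of 1 or more in either direction. It was passed by 0 members, beside 7.98% of all genes tested.

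**Figure D1:**
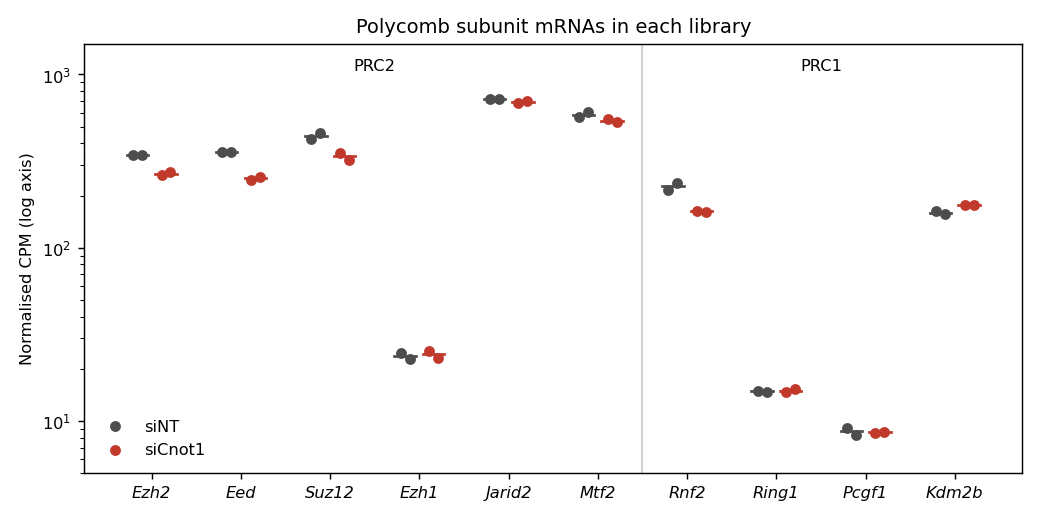
Normalised CPM (log axis) of each Polycomb subunit in the 2 siNT libraries (grey points) and the 2 siCnot1 libraries (red points), with horizontal lines at the group means. The red points lie below the grey points for *Ezh2*, *Eed*, *Suz12* and *Rnf2*, and also for *Jarid2* and *Mtf2*, which did not pass the test. They lie above the grey points for *Kdm2b*, and the points of the groups overlap for *Ezh1*, *Ring1* and *Pcgf1*.

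*Ezh2* (GRCm39 chr6:47507208-47572309, minus strand), the main methyltransferase of PRC2 in ESCs, had 345 and 344 CPM in the siNT libraries and 262 and 272 CPM in the siCnot1 libraries. The siCnot1 libraries were both below the siNT libraries, at 77.6% of the control mean (344 ± 0.740 against 267 ± 6.97 CPM, SD, n = 2 per group). The log2 fold change of *Ezh2* was -0.37 (SE 0.0550, 95% interval -0.48 to -0.25, adjusted p = 2.11e-05 from edgeR). For *Eed* (chr7:89603862-89630184, minus strand), the subunit that reads H3K27me3, siNT libraries stood at 358.5 and 355 CPM and siCnot1 libraries at 247 and 257 CPM. The groups did not overlap, and *Eed* had the most negative log2 fold change of the 10 members, -0.50 (SE 0.0552, 95% interval -0.62 to -0.39, adjusted p = 3.47e-07 from edgeR). *Suz12* (chr11:79883932-79924949, plus strand), the scaffold without which PRC2 does not assemble, stood at 422 and 456 CPM in siNT and at 353 and 319 CPM in siCnot1. Its replicates were further apart than those of *Eed* in both groups, and the highest siCnot1 library was still below the lowest siNT library. The log2 fold change of *Suz12* was -0.38 (SE 0.0601, 95% interval -0.51 to -0.26, adjusted p = 3.28e-05 from edgeR). *Rnf2* (chr1:151345149-151376747, minus strand), the main H2A ubiquitin ligase of PRC1 in ESCs, had 216 and 236 CPM in siNT and 164 and 161.5 CPM in siCnot1. Both siCnot1 libraries were lower, with a log2 fold change of -0.47 (SE 0.0596, 95% interval -0.60 to -0.35, adjusted p = 2.11e-06 from edgeR). When each library was left out in turn, these 4 genes kept a lower level and an adjusted p under 0.05, the highest being 0.0486 for *Suz12* (edgeR).

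The promoters of the 4 genes that fell are shown because these genes were called lower in siCnot1, and they were picked by that call. Whether they are regulated together was not tested. Each window holds 250 bases before and 50 bases after the annotated start, taken 5′ to 3′ along the gene's strand from RefSeq on GRCm38.p6, a different build from the GRCm39 positions of the count table. Capitals mark E2F words (TTTCCCGC, TTTCGCGC, TTTGCCGC or TTTGGCGC, searched on both strands), since E2F factors are known regulators of *Ezh2* and *Eed* in proliferating cells. The windows are chr6:47594981-47595280 (minus strand) for *Ezh2*, chr7:89980927-89981226 (minus strand) for *Eed*, chr11:79992856-79993155 (plus strand) for *Suz12* and chr1:151500942-151501241 (minus strand) for *Rnf2*.
Ezh2: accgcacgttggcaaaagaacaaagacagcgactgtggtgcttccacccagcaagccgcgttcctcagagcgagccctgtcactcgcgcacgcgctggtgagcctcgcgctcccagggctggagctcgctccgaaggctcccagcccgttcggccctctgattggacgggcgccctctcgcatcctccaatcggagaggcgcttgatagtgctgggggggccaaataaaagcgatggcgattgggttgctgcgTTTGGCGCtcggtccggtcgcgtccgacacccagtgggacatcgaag
Eed: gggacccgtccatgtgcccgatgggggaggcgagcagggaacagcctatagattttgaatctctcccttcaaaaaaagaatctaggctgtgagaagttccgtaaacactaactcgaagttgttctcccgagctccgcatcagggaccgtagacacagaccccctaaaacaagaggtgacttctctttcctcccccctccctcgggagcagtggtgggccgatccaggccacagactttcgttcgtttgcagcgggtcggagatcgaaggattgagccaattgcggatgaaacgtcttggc
Suz12: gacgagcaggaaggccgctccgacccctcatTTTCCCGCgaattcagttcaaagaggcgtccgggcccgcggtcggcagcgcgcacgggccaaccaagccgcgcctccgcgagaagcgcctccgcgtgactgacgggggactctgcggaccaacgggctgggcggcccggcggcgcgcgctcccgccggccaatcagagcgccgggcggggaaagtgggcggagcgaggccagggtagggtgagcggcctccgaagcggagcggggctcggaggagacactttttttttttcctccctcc
Rnf2: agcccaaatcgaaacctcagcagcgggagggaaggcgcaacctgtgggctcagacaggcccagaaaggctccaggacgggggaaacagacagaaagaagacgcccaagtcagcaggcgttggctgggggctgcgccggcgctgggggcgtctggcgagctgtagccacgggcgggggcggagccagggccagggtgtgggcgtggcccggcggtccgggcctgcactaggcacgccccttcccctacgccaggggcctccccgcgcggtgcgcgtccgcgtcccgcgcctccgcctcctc

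The *Ezh2* window held 1 E2F word, TTTGGCGC, beginning at base 4 of the transcript, and the *Suz12* window held 1, TTTCCCGC, beginning 219 bases before the start. An E2F word was found in 744 of 32851 promoter windows of that length (2.265%). Each of these words contains a CpG, and that share is over windows of any CpG content, so it is not a matched background. No such letters were in the windows of *Eed* and *Rnf2*, nor in those of the other members with an entry, 9 of the 10 members having one. The windows of the 4 genes that fell were rich in CpG dinucleotides, beside a median of 7 over all windows. They held 31 in *Ezh2*, 17 in *Eed*, 41 in *Suz12* and 30 in *Rnf2*. Most windows of the other members were rich as well, with 23 in *Ezh1*, 37 in *Ring1* and 24 and 23 in *Jarid2*. The 4 *Kdm2b* windows held 18 to 49 and the *Mtf2* windows 30 and 2. CpG content thus did not separate the members that fell from the others. The CCAAT box was present in 37.408% of windows, searched on either strand. It occurred 3 times in *Ezh2*, 1 time each in *Eed* and *Suz12* and 0 times in *Rnf2*. Among the other members it occurred 1 time in each *Jarid2* window, 1 time each in *Kdm2b* windows 2 and 4, and 3 times in *Mtf2* window 2. *Ezh1* and *Ring1* held 0. A match describes the letters only and is no measure of binding.

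Because CCR4-NOT is brought to many mRNAs by proteins that bind the 3′ UTR, among them Pumilio proteins and proteins that bind AU-rich elements, the 3′ UTRs of the members were searched as well (GENCODE M21 on GRCm38, the longest 3′ UTR of a coding transcript, sense strand). The Pumilio word TGTANATA was found in 4 of the 10 members, *Suz12*, *Jarid2*, *Mtf2* and *Kdm2b*, and in 25.452% of 13952 tested genes with a 3′ UTR. *Suz12*, with 3 words in 1933 bases, was the only one of the 4 members that fell to hold it, and its sites are shown with 11 bases before and 11 after the word in capitals.
Suz12 site 1: atcaatgctgcTGTAAATActggtattttt
Suz12 site 2: agatttataagTGTAAATActgatttggct
Suz12 site 3: tcaaatgatttTGTACATAaagttcaataa
*Mtf2*, which did not pass the test, held 4 such words in 2059 bases, and *Ezh2* (402 bases), *Eed* (283 bases) and *Rnf2* (1911 bases) held 0. The AU-rich word TATTTAT was found in 5 members, with 2 copies in *Suz12*, 2 in *Rnf2* and 1 each in *Mtf2*, *Pcgf1* and *Kdm2b*, and in 29.401% of the tested genes. Neither word separated the members that fell from the others. As with the promoters, a match describes letters only and is no measure of binding. The shares are over 3′ UTRs of any length, with a median of 1122 bases, so they are not a matched background. Any part of these words in the changes was not tested.

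The remaining PRC2 members gave smaller differences. *Jarid2* (GRCm39 chr13:44881817-45075119, plus strand), which helps PRC2 to bind chromatin, had 719 and 726 CPM in siNT and 683.5 and 706 CPM in siCnot1. The groups did not overlap, but the log2 fold change of -0.057 was close to its SE of 0.0525 (95% interval -0.17 to 0.052, adjusted p = 0.458 from edgeR). *Mtf2* (chr5:108213518-108257085, plus strand), a Polycomb-like protein that binds unmethylated CpG DNA, had 565 and 606 CPM in siNT and 554 and 528.5 CPM in siCnot1. Its groups did not overlap either, and the log2 fold change was -0.11 (SE 0.0555, 95% interval -0.23 to 0.0023, adjusted p = 0.135 from edgeR). *Ezh1* (chr11:101081941-101117289, minus strand), the paralog of *Ezh2* with the weaker methyltransferase activity, stood at 24.6 and 22.8 CPM in siNT and at 25.4 and 22.9 CPM in siCnot1. The groups overlapped, with a log2 fold change of 0.029 and a wider 95% interval from -0.19 to 0.25 (SE 0.105, adjusted p = 0.875 from edgeR). A p that misses the threshold does not show that a level stayed the same, but the lower end of each of these 3 intervals lies above the value of -0.37 measured for *Ezh2*.

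In PRC1, *Ring1* (GRCm39 chr17:34239766-34243654, minus strand), the paralog of *Rnf2*, had 14.9 and 14.6 CPM in siNT and 14.6 and 15.3 CPM in siCnot1. The groups overlapped, and the log2 fold change was 0.016 (SE 0.120, 95% interval -0.23 to 0.26, adjusted p = 0.941 from edgeR). *Pcgf1* (chr6:83054173-83057836, plus strand), the subunit that defines the variant complex PRC1.1, had 9.09 and 8.29 CPM in siNT and 8.47 and 8.66 CPM in siCnot1. Both siCnot1 libraries lay within the siNT range, with a log2 fold change of -0.021 and the widest 95% interval of the members, from -0.34 to 0.30 (SE 0.153, adjusted p = 0.942 from edgeR). *Kdm2b* (chr5:123008727-123127333, minus strand), which recruits PRC1.1 to CpG islands, had 162 and 156 CPM in siNT and 177 and 176 CPM in siCnot1. Its siCnot1 libraries were both above the siNT libraries, with a log2 fold change of 0.15 (SE 0.0582, 95% interval 0.032 to 0.27, unadjusted p = 0.0156, adjusted p = 0.0520 from edgeR). *Kdm2b* passed the threshold as higher under upper-quartile scaling (adjusted p = 0.0282), library totals (0.00126), a stricter filter that kept genes with 1 CPM or more in 2 libraries (0.0259) and limma-voom (0.0487), and not with DESeq2. Its adjusted p with a library left out was between 0.127 and 0.251 in the edgeR test.

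**Figure D2:**
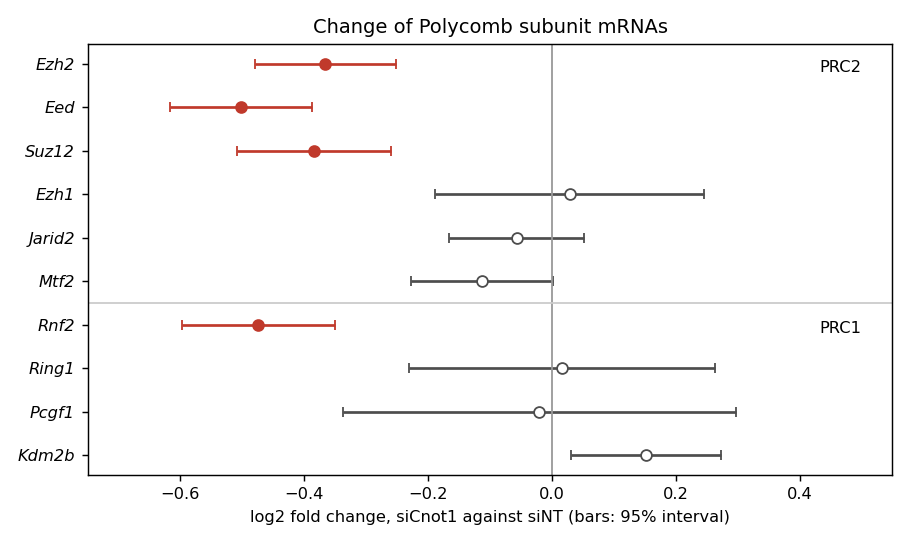
Log2 fold change of each subunit in siCnot1 against siNT (points) with its 95% interval (bars) from edgeR's quasi-likelihood fit, with filled red points for an adjusted p under 0.05. The intervals of *Ezh2*, *Eed*, *Suz12* and *Rnf2* lie wholly below 0, those of *Ezh1*, *Jarid2*, *Mtf2*, *Ring1* and *Pcgf1* include 0, and that of *Kdm2b* lies above 0 with an adjusted p of 0.0520.

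Levels of different genes were compared per length, as FPKM (normalised CPM per kilobase of the deposited exon length), as a description with no test. In siNT ESCs *Eed* was the highest at 173 ± 1.14 FPKM, followed by *Suz12* at 100.4 ± 5.61 and *Ezh2* at 71.9 ± 0.155 (SD, n = 2). Next came *Mtf2* at 56.3 ± 2.77 and *Rnf2* at 53.1 ± 3.27 FPKM, neighbours whose replicates overlapped. *Jarid2* (28.5 ± 0.192) and *Kdm2b* (24.9 ± 0.652) were lower, and *Ring1* (7.27 ± 0.105), *Ezh1* (5.63 ± 0.298) and *Pcgf1* (4.52 ± 0.295) were the lowest. In siCnot1 the order differed in 1 place, since *Kdm2b* (27.6 ± 0.142) stood beside *Jarid2* (27.4 ± 0.629), with overlapping replicates. The deposited length merges all exons of a gene, which makes *Jarid2* 25346 bases long against 5997 bases for its longest coding transcript in GENCODE M21. With that transcript length, a choice made after the values were seen, *Eed* stayed the highest in siNT (173 FPKM), *Mtf2* (144), *Ezh2* (123.5) and *Jarid2* (120.5) stood above *Suz12* (100.4), and *Ring1* and *Ezh1* were the lowest. In siCnot1 with that length *Mtf2* was the highest (133 FPKM) and stood above *Eed* (122), without overlap of the replicates. The order at the top and in the middle thus depends on the length, whereas in both groups *Ezh2* stood above *Ezh1* and *Rnf2* above *Ring1* with either length.

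The paralogs that can take the place of *Ezh2* and *Rnf2* had levels that overlapped between the groups, and their shares were compared within each library. *Ezh1* made up 7.50% and 7.01% of the length-scaled counts of *Ezh1* and *Ezh2* in siNT and 9.93% and 8.74% in siCnot1. The siCnot1 libraries were both higher, at 7.26 ± 0.342% against 9.33 ± 0.842% (mean ± SD, n = 2). *Ring1* made up 12.6% and 11.5% of *Ring1* and *Rnf2* in siNT and 15.7% and 16.5% in siCnot1. Here too the groups did not overlap, at 12.1 ± 0.806% against 16.1 ± 0.553% (mean ± SD, n = 2). The size of a share depends on the length used. In siNT *Ezh2* was at 71.9 FPKM with the deposited exon length and at 123.5 FPKM with the longest coding transcript. The log2 ratio of *Ezh1* to *Ezh2* was higher by 0.39 and that of *Ring1* to *Rnf2* by 0.49 in siCnot1. These ratios and shares restate the fold changes of the 4 genes given above, from the same counts, and are no separate result. In an exact two-sided permutation test over the libraries each log2 ratio gave p = 0.333, the smallest value that 2 against 2 allows, so the test cannot reach 0.05. *Ezh2* and *Rnf2* thus remained the more abundant paralog of their pair in all 4 libraries.

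**Figure D3:**
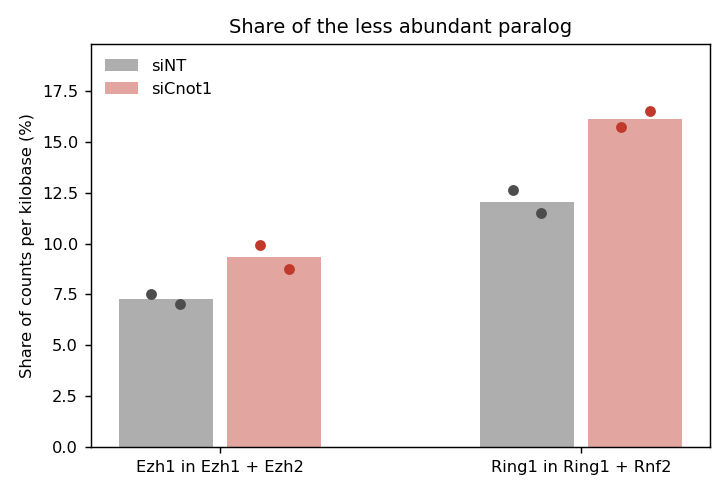
Share of *Ezh1* in the sum of *Ezh1* and *Ezh2*, and of *Ring1* in the sum of *Ring1* and *Rnf2*, in percent of counts per kilobase. Bars show group means and points the 2 libraries of each group, and both siCnot1 points lie above both siNT points in each pair.

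The other PRC2 subunits moved in both directions. Of the 9 tested, 3 were higher, 2 were lower and 4 did not pass edgeR's test, and the median log2 fold change was -0.042 (33.3% higher and 22.2% lower, beside 15.0% and 14.7% of all genes). *Ezhip*, a known inhibitor of PRC2 that is normally expressed in germ cells, rose from 11.4 ± 0.301 to 25.6 ± 3.84 CPM (SD, n = 2 per group). In siNT 349 and 365 counts fell on it and in siCnot1 769 and 950, a log2 fold change of 1.17 (SE 0.122, adjusted p = 1.67e-07 from edgeR), and it was the 1 gene of the 9 past that stricter rule. *Phf19*, a Polycomb-like paralog of *Mtf2*, fell with a log2 fold change of -0.51 (adjusted p = 0.00083 from edgeR). *Lcorl* (0.58, adjusted p = 0.0018) and *Epop* (0.27, adjusted p = 0.0032), which encode accessory subunits of the PRC2.1 form, rose in the same edgeR test. *Rbbp7*, a histone-binding subunit with the highest FPKM of this list over the 4 libraries, had a log2 fold change of -0.11 (adjusted p = 0.128 from edgeR). *Phf19* missed the threshold without siNT replicate 1 (edgeR adjusted p = 0.0577) and without siNT replicate 2 (0.0630), *Lcorl* without siNT replicate 1 (0.0924), and *Epop* without siNT replicate 2 (0.147) or either siCnot1 replicate (0.0543 and 0.133). Without a filter on low counts *Epop* missed it as well (0.0992).

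Among the 30 other PRC1 subunits 5 were higher, 6 were lower and 19 did not pass, shares of 16.7% and 20% beside the 15.0% and 14.7% of all genes (median log2 fold change 0.0078). *Wdr5*, a WD40 protein found in PRC1.6 as well as in complexes that methylate H3K4, fell from 426 ± 1.94 to 302 ± 13.6 CPM (log2 fold change -0.50, adjusted p = 4.44e-07 from edgeR). *Phc1*, a Polyhomeotic subunit of canonical PRC1, rose (0.24, adjusted p = 0.00137), and *Pcgf5*, which defines the variant PRC1.5, fell (-0.43, adjusted p = 0.00347) in the edgeR fit. *Auts2*, a partner of PCGF3 and PCGF5 in variant PRC1, rose with a log2 fold change of 0.41 (adjusted p = 0.00716 from edgeR). With a library left out, the number called higher was 0 or 1 and the number called lower 1 or 2, and *Wdr5* was the 1 of these 4 genes that kept its call each time. The adjusted p from edgeR without siNT replicate 1, siNT replicate 2 and siCnot1 replicate 1 was 0.0663, 0.0571 and 0.0635 for *Phc1*. It was 0.0846, 0.0733 and 0.0845 for *Pcgf5* without siNT replicate 1, siNT replicate 2 and siCnot1 replicate 2, and for *Auts2* it lay between 0.05004 and 0.153 with any library left out and was 0.0731 without a filter on low counts.

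Enzymes that remove Polycomb marks or deposit opposing ones were listed together with *Asxl* and *Foxk* genes, which encode partners of BAP1. Most genes of this list, called opposing enzymes below, gave no call. The 2 higher calls, *Asxl3* and *Foxk1*, were of such partners and not of enzymes. Of 14 tested, 2 were higher, 1 was lower and 11 did not pass, the median log2 fold change being 0.023 (14.3% and 7.14% beside 15.0% and 14.7% of all genes). The H3K27 demethylase genes *Kdm6a* and *Kdm6b*, the H2A deubiquitinase *Bap1* and the 4 *Kmt2* methyltransferase genes tested were among the 11. *Asxl3*, a cofactor of the BAP1 deubiquitinase, rose from 0.879 ± 0.335 to 4.80 ± 1.27 CPM (SD, n = 2 per group), with 20 and 35 counts in siNT and 131 and 191 in siCnot1 (log2 fold change 2.44, SE 0.314, adjusted p = 2.89e-06 from edgeR). *Usp16*, an H2A deubiquitinase, fell with a log2 fold change of -0.26 (adjusted p = 0.0114 from edgeR), and *Foxk1*, a transcription factor that binds BAP1, rose with one of 0.25 (adjusted p = 0.0433 from edgeR). *Asxl1*, with the highest FPKM of the list, had a log2 fold change of 0.066 (adjusted p = 0.438 from edgeR). With the replicate number as a block, *Foxk1* missed the threshold (adjusted p = 0.0661 from edgeR), as it did with any library left out (0.102 to 0.216), without a filter on low counts (0.111) and with DESeq2 (0.0704). *Usp16* missed it without siNT replicate 1 (0.127), siNT replicate 2 (0.154) or siCnot1 replicate 2 (0.216), and also with library totals (0.133) or no filter (0.0896).

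**Figure D4:**
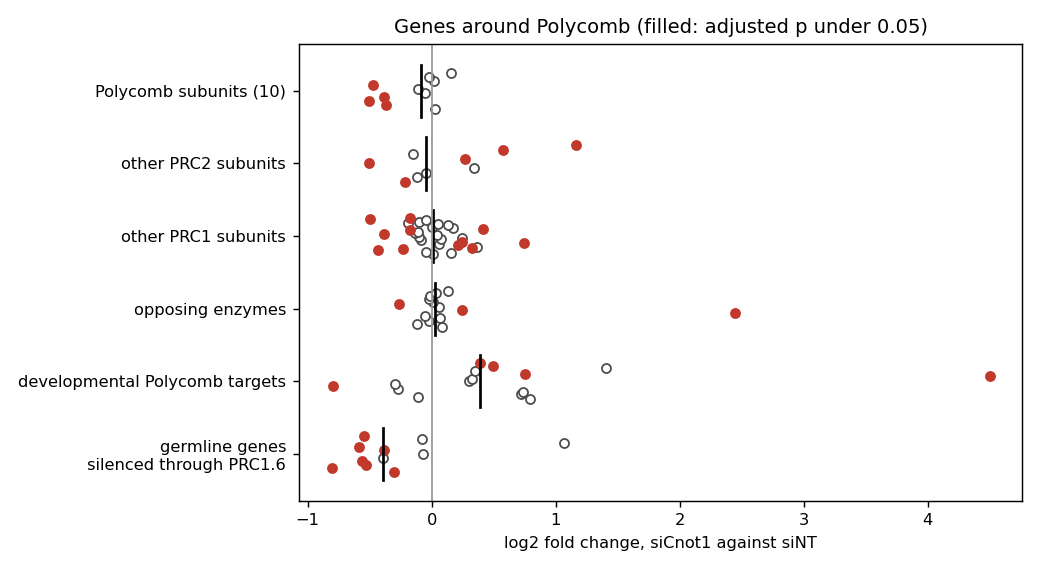
Log2 fold changes in siCnot1 against siNT of the 10 Polycomb subunits and of the other lists, 1 point per tested gene, filled red for an adjusted p under 0.05 in edgeR's test, with black lines at the list medians. Calls lie on both sides of 0 in every list but the 10 subunits and the germline genes, whose calls are all lower.

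Developmental genes that Polycomb silences in ESCs were low in these libraries, and 12 of the 27 listed had too few counts to test. Of the 15 tested 4 were higher, 1 was lower and 10 did not pass, the median log2 fold change being 0.39 over the tested genes (26.7% higher and 6.67% lower beside 15.0% and 14.7%). *T* (brachyury), which marks mesoderm, had 0 counts in all libraries. *Hoxd10* had 2 and 0 counts in siNT and 21 and 33 in siCnot1, a ratio of 25.2 with an exact 95% counting interval from 6.64 to 213 (adjusted p = 0.000773 from edgeR). *Hoxd13*, a posterior HOX gene, rose from 4.18 ± 0.633 to 7.03 ± 0.649 CPM, a log2 fold change of 0.75 (adjusted p = 0.00496 from edgeR). *Cdkn2a*, a cell cycle inhibitor locus, rose with a log2 fold change of 0.39 (adjusted p = 0.0177 from edgeR). *Pax6*, a regulator of neural and eye development, fell from 4.29 ± 0.249 to 2.46 ± 0.192 CPM (log2 fold change -0.80, adjusted p = 0.0150 from edgeR). Over the libraries left out in turn 0 to 2 genes of the list were higher and 0 were lower. The edgeR adjusted p was 0.0647 without siNT replicate 2 and 0.0624 without siCnot1 replicate 2 for *Hoxd10*. For *Hoxd13* it was 0.0615, 0.119 and 0.0969 without siNT replicate 1, siNT replicate 2 and siCnot1 replicate 1, and with any library left out it was 0.0631 to 0.130 for *Pax6* and 0.0935 to 0.134 for *Cdkn2a*. DESeq2 gave *Cdkn2a* an adjusted p of 0.0502 and called 3 genes of the list higher. Without a filter on low counts the edgeR adjusted p was 0.0687 for *Cdkn2a*, 0.0570 for *Hoxd13* and 0.0533 for *Pax6*. *Gata4*, *Gata6* and *Sox17* are in both this list and that of primitive endoderm markers, and they did not pass the test. Their log2 fold changes were 0.79, -0.11 and 0.72 (adjusted p = 0.0694, 0.826 and 0.345 from edgeR). Any link of the higher calls to the 2-cell-like and primitive endoderm markers given above was not tested.

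Germline genes that the variant complex PRC1.6 is known to repress were examined next, several of which had clear levels in siNT ESCs. Of 11 tested, 0 were higher, 7 were lower (63.6%, beside 14.7% of all genes) and 4 did not pass edgeR's test, the median log2 fold change being -0.39. At 373.9 ± 16.6 CPM in siNT and 214 ± 7.19 CPM in siCnot1 (SD, n = 2 per group), *Dazl*, an RNA-binding protein of germ cells, fell with a log2 fold change of -0.81 (SE 0.0575, adjusted p = 7.7e-10 from edgeR). *Stag3*, a meiotic cohesin subunit, fell from 97.4 ± 4.29 to 66.2 ± 7.57 CPM (-0.56, adjusted p = 6.42e-06 from edgeR). *Mael*, which acts in transposon silencing, had a log2 fold change of -0.53 (adjusted p = 3.55e-05) and *Hormad1*, a meiotic chromosome axis protein, one of -0.55 (adjusted p = 0.00017), both from edgeR. *Tex101*, named after its values were seen, had the 1 log2 fold change above 0 in the list (1.07, adjusted p = 0.152 from edgeR). With a library left out 3 to 5 of the 11 were lower, and *Stag3* without siNT replicate 1 (adjusted p = 0.0535) and *Hormad1* without siNT replicate 2 (0.0688) missed the threshold in edgeR.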

How the data were processed

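RNA was measured in 2 siNT and 2 siCnot1 libraries. According to the study and the labels, the authors made strand-marked libraries from poly(A)+ RNA for paired-end NovaSeq sequencing and deposited raw counts per gene, not normalized and not pooled, with the exon length of each gene. The submitters' processing notes name fastp 0.19.4, HISAT2 2.2.1, DESeq2 1.40.2 and mm10, whereas the positions in the count table fit GRCm39. The table has the layout of featureCounts, but the counting program and its strand setting are not given in the sources used here. If strand was not used, reads of overlapping genes cannot be told apart. Among the members only *Ezh2* (167 exon bases shared with F830010H11Rik, which had 14 counts in all) and *Kdm2b* (16 bases shared with Gm33118, 9 counts in all) overlap another gene's exons. *Cnot1* shares 781 exon bases with 4930513N10Rik (781 counts in all) and 79 with Setd6 (5897 counts in all), both on the opposite strand.

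Genes passing edgeR's filterByExpr (minimum count 10) were compared with edgeR 4.0.16 in R 4.3.3 (TMM, quasi-likelihood test, condition as the only term, Benjamini-Hochberg adjustment over 18144 genes). SE was taken as the absolute log2 fold change over the root of F, and 95% intervals used the fit's degrees of freedom. With 2 libraries per group, p-values rest on the spread shared across genes (biological coefficient of variation 0.0721). Alternatives were 3 other scalings (upper-quartile, size factors of DESeq2, library totals), no filter, at least 1 CPM in 2 libraries, DESeq2 1.42.0, limma-voom (limma 3.58.1), the replicate block and leaving out each library. Only the edgeR fit was tested on simulated data. Of 200 genes changed 2-fold, 161 were recovered, with 3 false calls. The simulation gave all genes the same spread and used changes larger than those of the members, so it does not show how well changes of their size are found.

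The genes named were the members, *Cnot1* and, per list, up to 4 called genes with the smallest p and the gene with the highest FPKM; other genes in the text were named after their values were seen. A single one of the genes so chosen is not reported here. Members and lists were chosen with earlier results of these data known. In the list, Tbxt was matched to the row *T* through RefSeq synonyms. Promoter and 3′ UTR sequences were joined by gene symbol. Retrotransposons and the study's other assays were not analysed here. Intervals of counts cover counting error only.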

Additional observations from a re-analysis of the deposited data

How the results depend on the processing

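*Ezh2*, *Eed*, *Suz12* and *Rnf2* were lower at an adjusted p under 0.05 in all 12 alternatives, with log2 fold changes of -0.40 to -0.26, -0.54 to -0.40, -0.46 to -0.28 and -0.54 to -0.37. With 2 libraries per group, small changes of the low members *Ezh1*, *Ring1* and *Pcgf1* could not be resolved: leaving out a library gave log2 fold changes of -0.052 to 0.096, -0.022 to 0.045 and -0.087 to 0.042, and for *Asxl1* -0.0016 to 0.13. Scaling by library totals moved the median log2 fold change over all tested genes from 0.0084 to 0.12, moved the share of higher calls from 50.5% to 71.8%, gave *Jarid2* 0.050 and *Pcgf1* 0.086, and called 1567 genes lower. By list, library totals called 1 member higher, 1 other PRC2 subunit lower, 10 other PRC1 subunits higher and 2 lower, and 6 opposing enzymes higher and 0 lower. Upper-quartile scaling, the 1 CPM filter and limma-voom also called 1 member higher, *Kdm2b*. Without a filter 1303 genes were higher and 1450 lower, and calls were 1 higher and 2 lower for other PRC1 subunits, 1 higher and 0 lower for opposing enzymes, 2 higher and 0 lower for developmental targets, and 4 lower for germline genes. DESeq2 called 3 other PRC1 subunits and 1 opposing enzyme higher.

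Between libraries with equal replicate numbers, departures from the group means showed almost no correlation across genes (-0.0057). The genes are not independent, so this value cannot show whether such libraries were handled together. The study does not say whether the replicate numbers mark pairs. The replicate block gave 2524 genes higher and 2431 lower, and called 4 other PRC1 subunits higher and 5 lower instead of 5 and 6, and 1 opposing enzyme higher instead of 2. Of the genes named in the report it ended the call of *Foxk1* and changed no other. Leaving out a library, which leaves 1 library in a group that is assumed to vary like the other group, called 743 to 1444 genes higher and 871 to 1469 lower. For the lists it gave 0 to 2 other PRC2 subunits lower, 0 to 1 other PRC1 subunits higher and 1 to 2 lower, 1 opposing enzyme higher and 0 to 1 lower, 0 to 2 developmental targets higher and 0 lower, and 3 to 5 germline genes lower. In raw counts with no length, the change of the *Ring1* share was 2.27 percentage points in place of 4.07. The cause of these differences between settings was not tested.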
